A study of Homo sapiens with 6 samples.

Results

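The genes described here encode the subunits of the nuclear RNA polymerases I, II and III and the dedicated initiation factors of polymerases I and III. The gene symbols POLR1, POLR2 or POLR3 followed by letters took in 31 rows of the count table, and RRN3, TAF1A, TAF1B, TAF1C, TAF1D, UBTF, BRF1, BRF2, BDP1 and MAF1 were added by name, which gave 41 of 26410 rows. All 41 passed the filter on low counts, so none was left out of the test. By class there were 3 subunits of Pol I only (POLR1A, POLR1B, POLR1E), 2 shared by Pol I and Pol III (POLR1C, POLR1D) and 5 shared by all 3 enzymes (POLR2E, POLR2F, POLR2H, POLR2K, POLR2L). A further 9 belonged to Pol II only (POLR2A, POLR2B, POLR2C, POLR2D, POLR2G, POLR2I, POLR2J, POLR2J2, POLR2J3), and 10 to Pol III only (among them POLR3A to POLR3F, POLR3G, POLR3GL and POLR3K). POLR2M, a Pol II associated protein, and POLR2J4, a relative of POLR2J, were kept apart. There were 6 Pol I factors and 4 Pol III factors.

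The cells were Kasumi-1, an established human line of acute myeloid leukaemia that carries the RUNX1::RUNX1T1 fusion. In 3 libraries (shPHF19) the cells had received a lentiviral hairpin against PHF19, an accessory subunit of Polycomb repressive complex 2, and in 3 libraries (Control) a scrambled hairpin. All cells were selected with puromycin at 2 µg/ml, starting 48 h after delivery and lasting at least 24 h, so the controls also carry the vector and its GFP and puromycin resistance genes. Control samples have WT as their treatment label, whereas the series title names a scrambled hairpin. The number of different PHF19 hairpins is not in the labels, and a single cell line was used. Nothing in the labels tells whether the replicates were grown as separate cultures, so the p-values describe the spread of these 6 libraries, part of which may be technical.

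Pol I transcribes the ribosomal RNA precursor in the nucleolus, Pol II transcribes messenger RNA genes, and Pol III makes transfer RNAs, the 5S ribosomal RNA and other short RNAs. The enzymes share a core design, in which the largest and the second largest subunits form the active centre around a set of small subunits, and each has its own peripheral subunits and initiation factors. In growing cells Pol I and Pol III supply the RNA parts of the translation machinery, and MYC and mTOR signalling are known to raise their activity.

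Total counts ran from 14663463 to 16615143 in shPHF19 libraries and from 14229878 to 15961787 in Control libraries. PHF19 stood at 37.0 ± 4.04 CPM (read counts relative to the library total, scaled by TMM factors) in shPHF19 cells and 185 ± 16.1 CPM in Control cells (SD, n = 3 each). The edgeR quasi-likelihood test called 60.2% of 13014 genes at an adjusted p of 0.05, with 29.4% higher and 30.9% lower in shPHF19 cells. Myeloblast markers were present in every library, with a summed level of 13220 to 13980 CPM in shPHF19 and 8579 to 8890 CPM in Control libraries over 11 genes, most of it MPO (8394 CPM in shPHF19 and 4278 CPM in Control on average) and KIT. Of 10 tested, 5 rose and 3 fell (log2 fold changes of -1.38 for PTPRC, -0.64 for ANPEP and -0.37 for RUNX1T1), and CD38 was at or below 0.389 CPM. Of the other lineages, the sum of 4 erythroid genes was at most 1.17 CPM, and T and B cell genes summed to 53.6 to 57.1 CPM against 40.6 to 46.8 CPM, most of it CD3D. The list of 6 epithelial, stromal and endothelial genes summed to 82.6 to 98.2 CPM in shPHF19 and 55.8 to 70.2 CPM in Control libraries, nearly all of it EPCAM, and the part of CD3D and EPCAM in the results was not tested. In such bulk samples fewer cells of a type and less RNA per cell cannot be told apart.

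Polymerase genes were mostly higher in shPHF19 cells. Of the 41 members, 23 rose, 4 fell and 14 were not called (edgeR, adjusted p of 0.05 over all 13014 genes), so 56.1% rose where 29.4% of all genes did, and 9.76% fell where 30.9% of all genes did. Their median log2 fold change was 0.37, beside -0.03 over all genes tested. The values of the groups did not overlap for 29 members, 24 of them higher and 5 lower in shPHF19, beside 63.5% of all genes (30.9% higher and 32.6% lower). Without any scaling factor, the members together held 0.301, 0.287 and 0.285% of all counts in shPHF19 libraries, against 0.248, 0.257 and 0.254% in Control libraries.

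**Figure D1:**
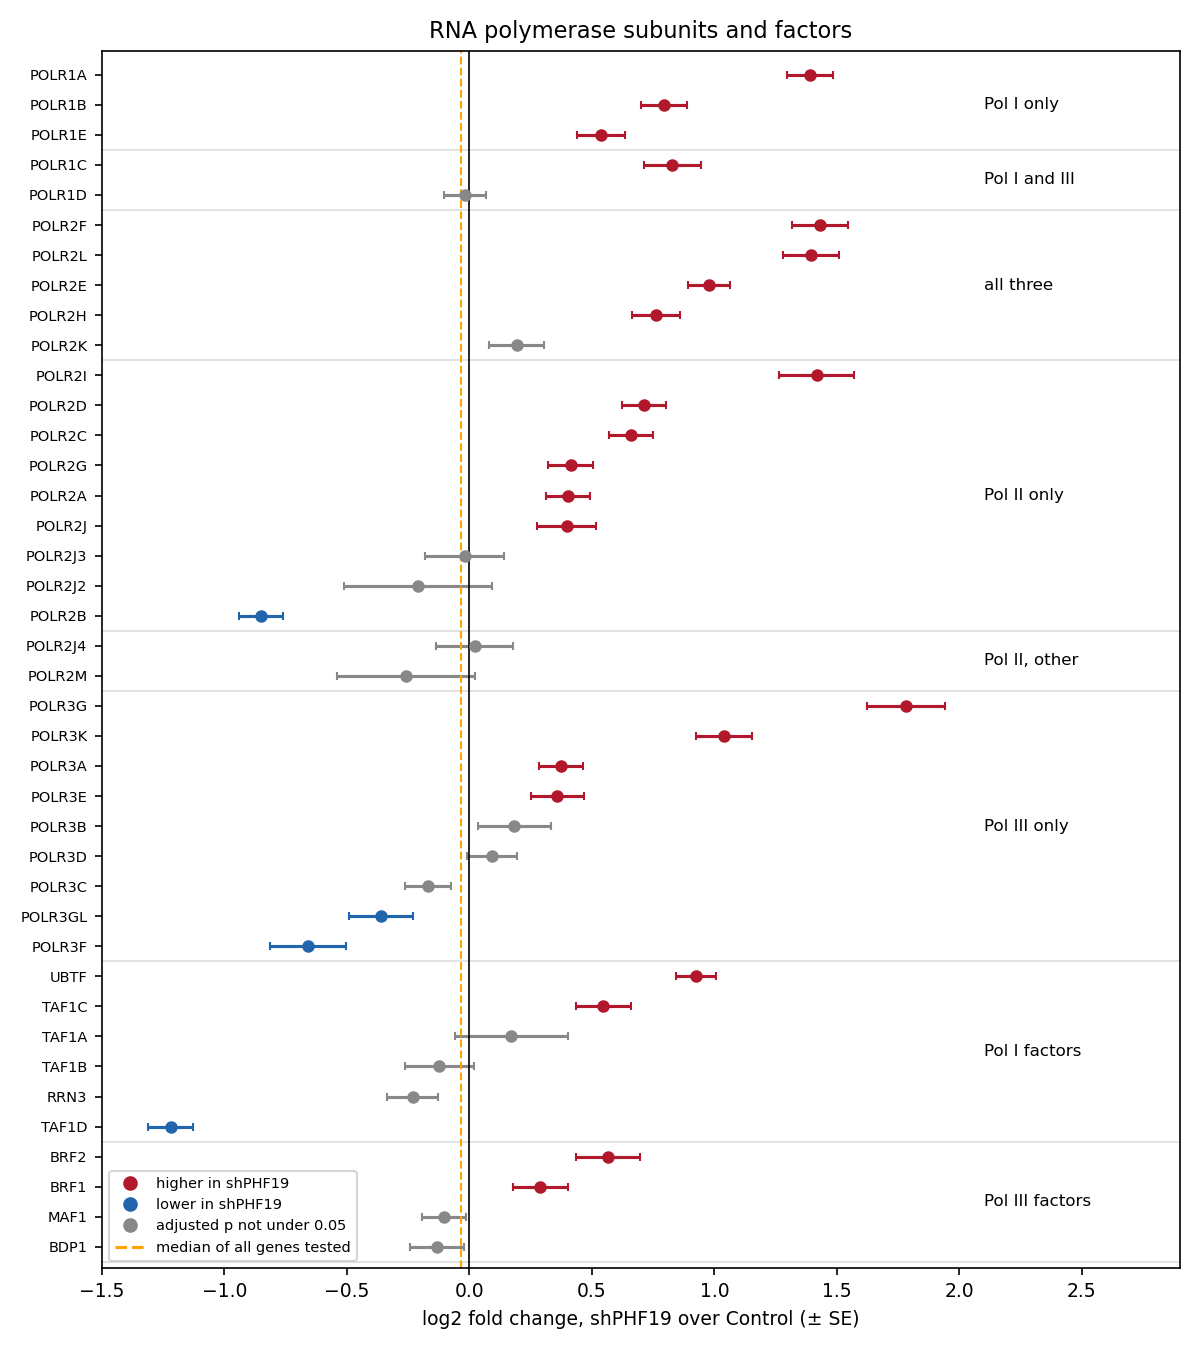
Log2 fold change (shPHF19 over Control, with its standard error) of the members, apart from 1 that is not drawn, grouped by enzyme and sorted within each group, from 3 libraries per group. Red marks genes that rose, blue genes that fell and grey genes that did not pass the edgeR test, and the dashed line is the median of all genes tested (-0.03); POLR3G (1.78) is at the upper end and TAF1D (-1.22) at the lower end.

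By class, all 3 subunits of Pol I only rose, with a median log2 fold change of 0.80. Of the 5 subunits common to all enzymes, 4 rose and none fell, with a median of 0.98. Of the 9 of Pol II only, 6 rose and 1 fell (median 0.40), and of the 10 of Pol III only, 5 rose and 2 fell (median 0.27). Among the factors, 2 of 6 were higher and 1 lower for Pol I (median 0.02) and 2 of 4 were higher for Pol III (median 0.09). These counts stand beside 29.4% higher and 30.9% lower over all genes tested. The 33.3% of Pol I factors that rose is close to that share. Members are not replicates of a condition, so these medians carry no test. Summed over a class as CPM per kb of annotated exon, the Pol I only subunits stood at 57.5, 56.9 and 56.0 in shPHF19 and 32.1, 33.9 and 33.0 in Control libraries. On the same scale the 8 Pol II only subunits with an annotated length stood at 228, 205 and 204 in shPHF19 and 154, 170 and 157 in Control libraries. The Pol III only subunits stood at 112, 111 and 109.7 in shPHF19 and 94.6, 93.5 and 87.8 in Control libraries. Within that Pol III sum, POLR3K alone averaged 26.4 in shPHF19 and 12.8 in Control libraries, so the sum does not describe the class evenly. The sums of the 4 Pol III factors overlapped, at 82.4, 71.3 and 69.9 in shPHF19 and 68.8, 79.8 and 76.2 in Control libraries.

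Among the 3 members of Pol I only, POLR1A had the largest fold change. It encodes the largest subunit, which carries part of the active centre. In GENCODE 29 (GRCh38) the gene spans 86020216 to 86106155 on chromosome 2, minus strand. Its level was 213, 189 and 166 CPM in shPHF19 libraries against 65.9, 71.4 and 79.6 CPM in Control libraries, with no overlap. That is 2.62-fold higher (log2 fold change 1.39, SE 0.0936, edgeR adjusted p = 1.24e-17). POLR1B, the second largest subunit, stood at 94.3, 106 and 106 CPM in shPHF19 against 58.4, 59.5 and 58.9 CPM in Control libraries (log2 fold change 0.80, SE 0.0925). POLR1E, a peripheral subunit that acts in initiation and elongation, stood at 67.5, 65.6 and 67.7 CPM in shPHF19 against 45.1, 48.3 and 44.7 CPM in Control libraries (0.54, SE 0.0985). The lowest shPHF19 library was above the highest Control library for both POLR1B and POLR1E.

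The remaining Pol I subunits appear in the table under older symbols that the naming pattern does not match. CD3EAP, the older symbol of POLR1G, was at 7.94, 7.65 and 8.05 CPM in shPHF19 against 3.20, 1.94 and 2.72 CPM in Control libraries (log2 fold change 1.59, edgeR adjusted p = 1.09e-07). ZNRD1 (POLR1H) also rose, by 0.37 on the log2 scale (edgeR adjusted p = 0.00549), although its groups overlapped, at 40.7 to 54.0 CPM in shPHF19 and 33.6 to 42.7 CPM in Control libraries. TWISTNB (POLR1F) did not pass (0.23, edgeR adjusted p = 0.0968). With these, 5 of 6 subunits of Pol I only rose and none fell, with a median of 0.67.

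POLR1C and POLR1D encode the partners of a heterodimer that seeds the assembly of both Pol I and Pol III. POLR1C stood at 46.7, 45.7 and 43.0 CPM in shPHF19 libraries against 24.8, 29.4 and 22.0 CPM in Control libraries (log2 fold change 0.83, SE 0.117, edgeR adjusted p = 3.65e-08). POLR1D stood at 121, 126 and 112 CPM in shPHF19 against 122, 124 and 118 CPM in Control libraries (-0.02, edgeR adjusted p = 0.872). The values of POLR1C did not overlap between the groups, whereas those of POLR1D did. After removal of length and GC trends POLR1D was called higher (0.16, edgeR adjusted p = 0.0248), and with library totals only it was called lower (-0.22, edgeR adjusted p = 0.0194), over a range of adjusted p from 0.0194 to 0.985 in all alternatives.

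The small subunits shared by all enzymes rose with the exception of POLR2K, and POLR2F and POLR2L were among the steepest rises. POLR2F, a subunit near the base of the clamp, was at 58.9, 51.5 and 49.8 CPM in shPHF19 against 18.8, 20.6 and 19.9 CPM in Control libraries (2.70-fold, log2 fold change 1.43, SE 0.115, edgeR adjusted p = 4.28e-15). POLR2L, a small zinc-binding subunit of the assembly platform, was at 66.0, 53.9 and 50.9 CPM in shPHF19 against 22.1, 22.3 and 20.4 CPM in Control libraries (2.63-fold, 1.40, SE 0.116). Every shPHF19 value of these genes was above every Control value.

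POLR2E, which contacts the incoming DNA in the jaw of the enzyme, stood at 194, 182 and 177 CPM in shPHF19 against 89.5, 93.8 and 96.9 CPM in Control libraries (log2 fold change 0.98, SE 0.0852). POLR2H stood at 120.5, 101 and 99.3 CPM in shPHF19 against 66.2, 68.0 and 55.1 CPM in Control libraries (0.76, SE 0.0976). Neither gene's groups overlapped. POLR2K, another zinc-binding subunit, was the exception, at 37.1, 45.5 and 49.5 CPM in shPHF19 against 42.0, 37.1 and 36.5 CPM in Control libraries (0.19, edgeR adjusted p = 0.135). It was called higher without shPHF19 replicate 1 (0.31, edgeR adjusted p = 0.0182) and after removal of length and GC trends (0.30, 0.00182; up to 0.941 over the alternatives).

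Of the 9 subunits of Pol II only, 6 rose and POLR2B alone fell, so its 2 largest subunits moved in opposite directions. POLR2A encodes the largest subunit, whose long C-terminal repeat is phosphorylated during the transcription cycle. It stood at 463, 413 and 371 CPM in shPHF19 libraries against 271, 323 and 349 CPM in Control libraries (1.32-fold, log2 fold change 0.40, SE 0.0891, edgeR adjusted p = 0.00013). The groups were close together without overlapping. The call was lost with library totals only (0.19, edgeR adjusted p = 0.0555; from 3.97e-07 over the alternatives).

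POLR2B, the second largest subunit of Pol II, was the subunit that fell most. It was at 67.3, 72.8 and 78.3 CPM in shPHF19 libraries against 136, 127 and 131 CPM in Control libraries, 1.80-fold lower (log2 fold change -0.85, SE 0.0895, edgeR adjusted p = 2.03e-11). The gene spans 56977722 to 57031168 on chromosome 4, plus strand, in GENCODE 29 (GRCh38). Its exons overlap those of IGFBP7 and NOA1 on the opposite strand by 733 bases in all, and IGFBP7 rose (0.88). The sources used here do not state whether counting took the strand into account.

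POLR2I, a small subunit involved in the fidelity of RNA synthesis, was at 26.3, 21.6 and 23.3 CPM in shPHF19 against 7.44, 10.4 and 8.69 CPM in Control libraries (2.67-fold, log2 fold change 1.42, SE 0.154). Of its 1269 exon bases, 419 overlap OVOL3 and TBCB on the opposite strand, and TBCB rose (0.50). POLR2D, which forms the stalk with POLR2G, was at 101, 98.2 and 98.3 CPM in shPHF19 against 57.7, 61.9 and 61.9 CPM in Control libraries (0.71, SE 0.0916). POLR2C, whose product pairs with that of POLR2J in the assembly platform, was at 121, 110.4 and 112 CPM in shPHF19 against 74.7, 73.7 and 69.2 CPM in Control libraries (0.66, SE 0.0895). The groups did not overlap for any of these genes. POLR2G (0.41) and POLR2J (0.40) rose by smaller amounts, and POLR2J lost its call without Control replicate 3 (0.31, edgeR adjusted p = 0.0517), with library totals only (0.19, 0.163), after removal of the length trend (0.26, 0.0536) and of the length and GC trends (0.11, 0.319; from 0.00037 over the alternatives).

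POLR2J2, POLR2J3 and POLR2J4 are near-identical relatives of POLR2J in the genome, so their counts depend on how shared reads were treated. POLR2J2 ran from 2.40 to 2.82 CPM in shPHF19 and from 2.58 to 3.60 CPM in Control libraries, POLR2J3 from 18.9 to 24.6 and from 14.4 to 31.2 CPM, and POLR2J4 from 11.6 to 13.7 and from 12.3 to 12.6 CPM. None of them passed (log2 fold changes of -0.21, -0.02 and 0.02). POLR2M, which was at 2.45 to 3.95 CPM in shPHF19 and 2.95 to 4.18 CPM in Control libraries, did not pass either (-0.26). Its exons share 1387 bases with GCOM1 on the same strand, which had 0 counts in each group. The level of POLR2M thus depends on how shared reads were treated, which was not tested.

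Between the enzymes, the levels of some large subunits shifted against each other. Levels between genes are given as CPM per kb of annotated exon. For the largest subunits POLR2A was highest in each group (49.7 ± 5.50 in shPHF19 and 37.6 ± 4.77 in Control). POLR1A stood at 15.7, 14.0 and 12.3 in shPHF19 libraries, just above POLR3A at 11.9, 12.0 and 11.4, whereas in Control libraries POLR1A stood at 4.87, 5.28 and 5.89 and POLR3A at 8.67, 9.48 and 9.06. For the second largest subunits, POLR1B averaged 16.2 ± 1.08 and POLR2B 12.3 ± 0.933 in shPHF19 libraries, against 9.31 ± 0.0876 and 22.3 ± 0.816 in Control libraries (SD, n = 3 each). POLR3B was lowest, at 3.89 ± 0.130 in shPHF19 and 3.42 ± 0.742 in Control libraries. The order of POLR1A and POLR3A, and that of POLR1B and POLR2B, was thus opposite in the groups, on a scale that takes all annotated exons as the length.

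**Figure D2:**
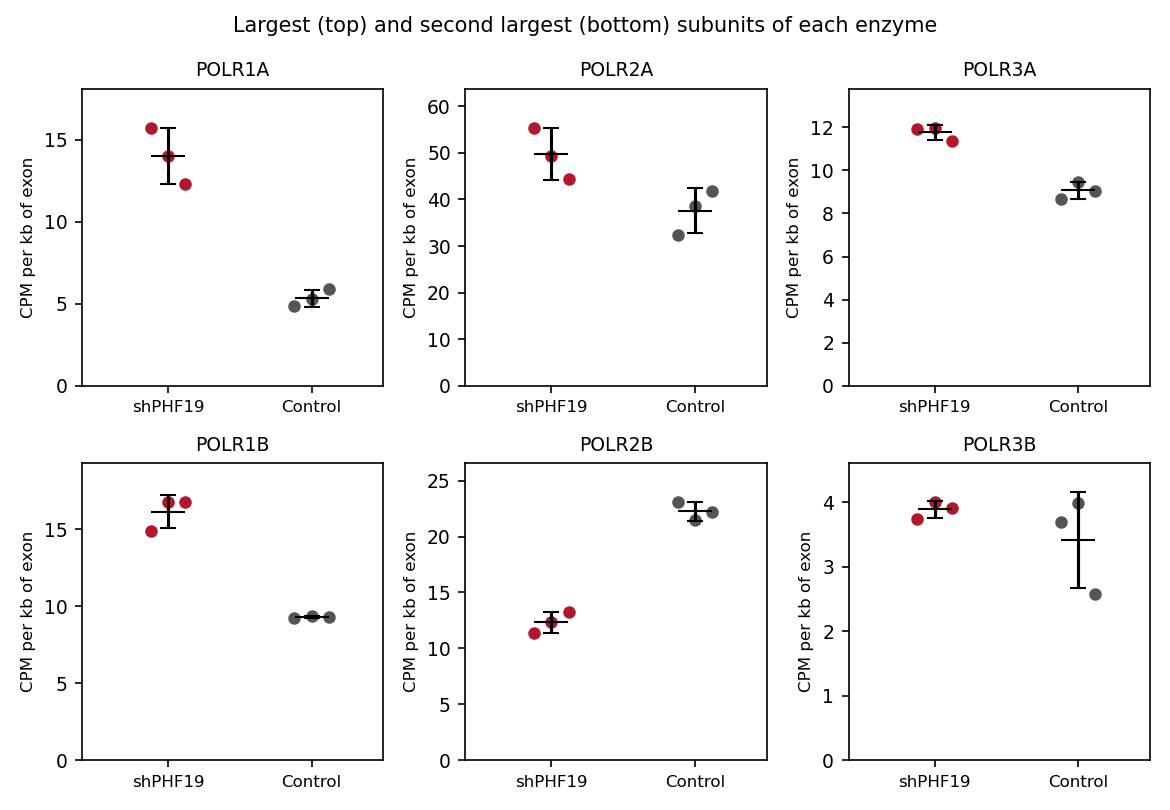
Level of the largest (top) and the second largest (bottom) subunit of each enzyme in every library, as CPM per kb of annotated exon, with bars for the mean and SD of 3 libraries per group. POLR1A and POLR1B are higher in shPHF19, POLR2B is lower (12.3 against 22.3 in Control) and the groups of POLR3B overlap.

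Ratios of these genes within a library do not depend on the scaling of libraries. The log2 ratio of POLR1B to POLR2B was 0.49 ± 0.0533 in shPHF19 and -1.16 ± 0.0664 in Control libraries (SD, n = 3 each), a difference of 1.65. That of POLR1A to POLR2A was -1.13 ± 0.0192 in shPHF19 and -2.12 ± 0.0707 in Control libraries, a difference of 0.98, and that of POLR1A to POLR3A differed by 1.01. POLR2B relative to POLR3B differed by -1.06 and POLR1B relative to POLR3B by 0.58. In all these pairs the groups did not overlap, and a 2-sided exact permutation gave p = 0.1, as low as 3 against 3 libraries can reach (0.114 adjusted over 8 pairs). POLR2A relative to POLR3A was 1.98 ± 0.128 in shPHF19 and 1.95 ± 0.152 in Control libraries, with overlapping groups (exact permutation p = 0.7).

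In Pol III, the paralogs POLR3G and POLR3GL of the ternary subcomplex that helps to open the promoter changed in opposite directions. This subcomplex holds POLR3C, POLR3F and either POLR3G, known from stem cells and tumours, or POLR3GL, which is found in most adult tissues. POLR3G was at 20.1, 25.0 and 23.3 CPM in shPHF19 libraries against 7.56, 6.42 and 5.90 CPM in Control libraries. This was the steepest rise among the members, 3.44-fold (log2 fold change 1.78, SE 0.160, edgeR adjusted p = 1.61e-13). POLR3GL was at 20.2, 19.0 and 24.7 CPM in shPHF19 against 29.4, 26.8 and 25.8 CPM in Control libraries (-0.36, SE 0.129, edgeR adjusted p = 0.0145). The groups came close for POLR3GL, and its call was lost without Control replicate 1 (-0.31, edgeR adjusted p = 0.061) or shPHF19 replicate 2 (-0.28, 0.121; from 9.62e-05 over the alternatives).

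POLR3G lies on chromosome 5 from 90471748 to 90514553 and POLR3GL on chromosome 1 from 145964702 to 145978848, each on the plus strand (GRCh38, GENCODE 29). The ratio of POLR3G to POLR3GL counts was 0.996, 1.32 and 0.944 in shPHF19 libraries, against 0.258, 0.240 and 0.230 in Control libraries. On the log2 scale the ratio differed by 2.15 between the groups (exact permutation p = 0.1, 2-sided, again the lowest possible; 0.114 adjusted over 8 pairs). The other partners in the subcomplex did not rise. POLR3F was at 10.5, 11.7 and 10.5 CPM in shPHF19 against 19.7, 17.7 and 14.3 CPM in Control libraries (-0.66, SE 0.157, edgeR adjusted p = 0.000323). POLR3C was at 65.3 to 70.2 CPM in shPHF19 and 74.4 to 79.2 CPM in Control libraries, without overlap, and did not pass (-0.17, edgeR adjusted p = 0.114). It was called lower with upper-quartile factors (-0.27, edgeR adjusted p = 0.0107) and with library totals only (-0.37, 0.000648), and in the fits without the length trend (-0.24, 0.0193) and without length and GC trends (-0.28, 0.000372; up to 0.253 over the alternatives).

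**Figure D3:**
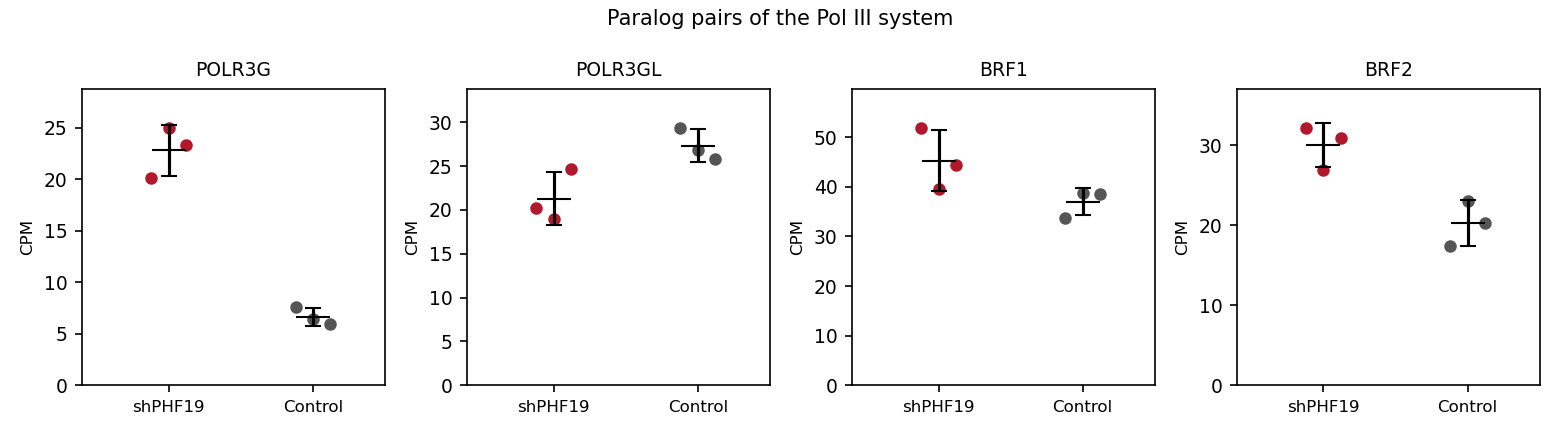
CPM of POLR3G, POLR3GL, BRF1 and BRF2 in each library, with bars for the mean and SD of 3 libraries per group. POLR3G is higher in shPHF19 (20.1 to 25.0 CPM against 5.90 to 7.56 CPM in Control) while POLR3GL is lower.

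Among the other Pol III subunits, POLR3K rose. POLR3K, a small subunit that acts in termination and RNA cleavage, was at 54.4, 51.2 and 43.7 CPM in shPHF19 against 25.3, 24.0 and 23.3 CPM in Control libraries (2.06-fold, 1.04, SE 0.114), and 153 bases of its exons overlap SNRNP25 on the opposite strand, which rose by 1.60 on the log2 scale. The groups of POLR3K did not overlap.

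The core of Pol III differed less. POLR3A, the largest subunit, was at 106, 107 and 101 CPM in shPHF19 against 77.3, 84.5 and 80.8 CPM in Control libraries (0.37, SE 0.0889, edgeR adjusted p = 0.00032). POLR3B, the second largest, was at 18.2, 19.4 and 19.0 CPM in shPHF19 against 18.0, 19.3 and 12.5 CPM in Control libraries and did not pass (0.18, edgeR adjusted p = 0.29). Control replicate 3 stood below the other libraries for POLR3B. POLR3E rose (0.36), while POLR3D, its partner in a dimer that acts in initiation and termination, did not pass (0.09). CRCP, a Pol III subunit that the naming pattern does not match, did not pass either (0.09). With CRCP, 5 of 11 subunits of Pol III only rose and 2 fell, with a median of 0.18. With library totals only, POLR3A (0.17, edgeR adjusted p = 0.0893; from 4.82e-08) and POLR3E (0.15, edgeR adjusted p = 0.216; from 0.000277) lost their calls.

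Of the 6 initiation factors of Pol I, 2 rose (33.3%, close to the 29.4% of all genes) and 1 fell. UBTF, which binds along the ribosomal RNA genes and keeps them open, was at 379, 343 and 346 CPM in shPHF19 against 186, 192 and 185 CPM in Control libraries (1.90-fold, log2 fold change 0.92, SE 0.0816, edgeR adjusted p = 1.04e-13). The SL1 complex joins TBP with the products of TAF1A, TAF1B, TAF1C and TAF1D at the promoter. TAF1C was at 53.6, 53.0 and 42.3 CPM in shPHF19 against 33.5, 36.7 and 31.6 CPM in Control libraries (0.55, SE 0.112). TAF1D fell, and was at 56.0, 64.7 and 63.6 CPM in shPHF19 against 153, 138 and 138 CPM in Control libraries, 2.33-fold lower (-1.22, SE 0.0914, edgeR adjusted p = 4.84e-16). The groups did not overlap for UBTF, TAF1C or TAF1D.

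TAF1D spans 93729948 to 93784391 on chromosome 11, minus strand, in GENCODE 29 (GRCh38), and its annotated exons overlap 8 small RNA genes on the same strand by 946 bases. Among these, SNORA40 (1.18), SNORA18 (1.04) and MIR1304 (1.17) rose. SNORA1 (-0.805), SNORA25 (-0.67), SNORA32 (-0.57), SNORA8 (0.54) and SNORD5 (0.15) did not pass. CEP295 and C11orf54, which overlap TAF1D on the opposite strand, fell (-0.60 and -0.90), and MED17, which also overlaps it there, did not pass (-0.11). The level of TAF1D depends on how reads in these shared bases were counted, and their part in its fall was not tested. TAF1A was at 3.89 to 5.95 CPM in all libraries and did not pass (0.17), and TAF1B (-0.12) did not pass either, though it was called lower with library totals only. TBP, the remaining SL1 component, did not pass (0.15, edgeR adjusted p = 0.256).

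RRN3, which links Pol I to SL1 and is a target of growth signalling, was at 45.4, 50.5 and 60.4 CPM in shPHF19 against 64.0, 56.8 and 62.8 CPM in Control libraries. The groups overlapped and the gene just missed the threshold (-0.23, SE 0.105, edgeR adjusted p = 0.0534). It was called lower in 8 of 16 alternatives, among them without Control replicate 2 (-0.27, edgeR adjusted p = 0.0442) and without shPHF19 replicate 3 (-0.34, 0.00567), over a range from 0.000718 to 0.281. RRN3 has transcribed partial copies in the genome, of which RRN3P1 fell (-0.85) and RRN3P3 rose (0.66), so its value depends on how shared reads were counted.

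Of the Pol III factors, BRF1 and BRF2 rose. TFIIIB consists of TBP, BDP1 and either BRF1, used at transfer RNA and 5S genes, or BRF2, used at genes such as U6. BRF2 was at 32.2, 27.0 and 31.0 CPM in shPHF19 against 17.4, 23.1 and 20.3 CPM in Control libraries (1.48-fold, log2 fold change 0.57, SE 0.129, edgeR adjusted p = 0.000195). Its exons overlap 1629 bases of ADGRA2 on the opposite strand, which fell (-0.43). BRF1 was at 52.0, 39.7 and 44.3 CPM in shPHF19 against 33.8, 38.7 and 38.6 CPM in Control libraries (0.29, edgeR adjusted p = 0.0238). The BRF1 groups nearly touched, and the call was lost with the replicate block (0.28, edgeR adjusted p = 0.0527), without Control replicate 1 (0.23, 0.105), without shPHF19 replicate 1 (0.19, 0.179), with library totals only (0.08, 0.539) and with upper-quartile factors (0.19, 0.149; from 0.00139 over the alternatives).

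The ratio of BRF1 to BRF2 counts was 1.61, 1.47 and 1.43 in shPHF19 against 1.94, 1.68 and 1.90 in Control libraries, a log2 difference of -0.29 (exact permutation p = 0.1, 2-sided, the lowest possible; 0.114 adjusted over 8 pairs). BDP1 (-0.13, edgeR adjusted p = 0.302) and MAF1, the repressor of Pol III that growth signalling inactivates (-0.10, edgeR adjusted p = 0.316), did not pass. MAF1 was at 151, 131 and 123 CPM in shPHF19 against 134, 155 and 147 CPM in Control libraries, with overlap. Some fits called MAF1 lower, with upper-quartile factors (-0.21, edgeR adjusted p = 0.0391), library totals only (-0.31, 0.00238), without the length trend (-0.20, 0.0465) or without length and GC trends (-0.33, 1.16e-06; up to 0.772 over the alternatives). Library totals alone gave a call for BDP1 as lower (-0.34, edgeR adjusted p = 0.00889), and it was higher after removal of length and GC trends (0.20, edgeR adjusted p = 0.0303, with adjusted p reaching 0.962 elsewhere).

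Other genes of these pathways were counted in lists, to be read against the 60.2% of all genes that were called (29.4% higher, 30.9% lower). Of 13 genes for TFIIIA, TFIIIC, SNAPC and ZNF143, which bring Pol III to its promoters, 8 rose, 2 fell and 3 did not pass (median log2 fold change 0.52), led by GTF3C6 (1.14), GTF3A (0.81), GTF3C5 (0.68) and GTF3C1 (0.55), which all rose. Among the SNAPC genes SNAPC4 rose (0.52), SNAPC2 (-0.63) and SNAPC5 (-0.38) fell, and SNAPC1 (-0.30) and SNAPC3 (0.31) did not pass. The SNAPC genes were named after their values were seen. Of 7 other genes of ribosomal DNA transcription 4 rose, 1 fell and 2 did not pass (median 0.59), with MYBBP1A (1.27), TCOF1 (0.88), NOLC1 (0.86) and NCL (0.59) higher. Of 18 general factors of Pol II, 5 (27.8%) were higher, close to the 29.4% of all genes, 1 was lower and 12 were not called (median 0.09). Among them ERCC2, a helicase of TFIIH, rose most, at 58.4 ± 7.53 CPM in shPHF19 against 21.0 ± 0.603 CPM in Control (1.48), and MNAT1 (0.51), GTF2E2 (0.48) and ERCC3 (0.34) rose as well.

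Of 12 elongation genes of Pol II, 5 rose, 2 fell and 5 did not pass (median 0.15), so 58.3% were called, close to the 60.2% of all genes. TCEA1, the elongation factor TFIIS, which helps a stalled Pol II to cut back its transcript, was at 133, 168 and 174 CPM in shPHF19 against 519, 448 and 465 CPM in Control libraries. It was 3.01-fold lower (log2 fold change -1.59, SE 0.0909, edgeR adjusted p = 3.74e-20), with no overlap. The NELF pausing factors NELFB (0.80), NELFA (0.68), NELFCD (0.47) and NELFE (0.27) rose. The other elongation gene that fell was SUPT4H1 (-0.27, edgeR adjusted p = 0.0146), and SUPT5H did not pass (0.12). NELFE, SUPT4H1 and SUPT5H were named after their values were seen.

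Further members share exon bases with genes on the opposite strand, which matters if counting ignored the strand. The overlap was 617 bases for POLR1C, among them with XPO5, which rose (0.61), and 257 bases for POLR2L with CD151, which rose (0.23). It was 155 bases for POLR3F with DZANK1, which rose (0.76), and 51 bases for POLR2J with LRWD1, which rose (1.21). For BRF1 it was 1044 bases, among them with PACS2, which fell (-0.29), and for POLR2C 89 bases with DOK4, which fell (-0.58). POLR3G shares 260 bases with MBLAC2, which did not pass (-0.11), and TAF1C shares 450 bases with DNAAF1, which was not tested. The part of these overlaps in the values was not tested.

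GC content moved with the fold changes. Across 39 members with an annotation, Spearman's rho between the log2 fold change and the GC content of the transcripts was 0.47, beside 0.17 across 12215 tested genes, and rho with exon length was -0.05 and -0.12. These are correlations across genes that share the same 6 libraries, and genes are not independent replicates. The 4 members that fell had transcripts of 37.9 to 49.4% GC (median 42.2%) and the 23 that rose of 37.3 to 62.9% (median 55.1%), POLR3G being the lowest of them. Once length and GC trends were removed, the median log2 fold changes were 0.87 for Pol I only, 0.29 for Pol II only and 0.30 for Pol III only. In that fit 25 of 39 members were higher and 7 lower, beside 4053 higher and 3986 lower of 12215 genes. The part of GC content in the remaining differences was not tested.

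**Figure D4:**
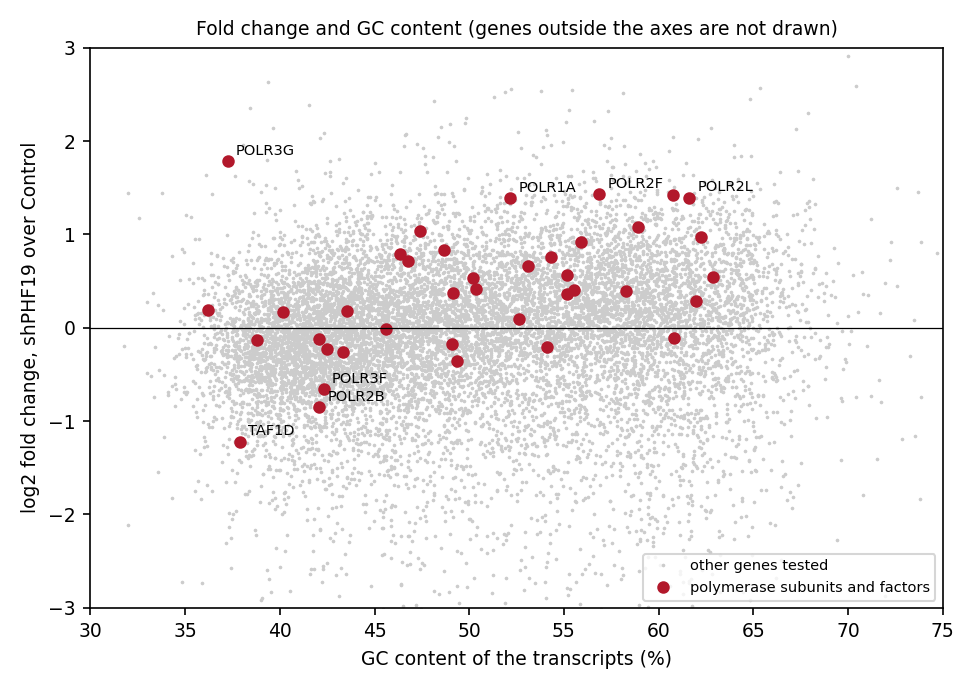
Log2 fold change (shPHF19 over Control) against the GC content of a gene's annotated transcripts in percent, for 39 members (red) and the other genes tested (grey); genes beyond the axes are not drawn. TAF1D, POLR2B and POLR3F lie at low GC and fell, whereas POLR3G lies at low GC and rose.

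The promoters of a pair of genes that rose and of a pair that fell are shown, chosen among the genes with a promoter in the table because they moved far and in opposite directions. The sequences are the 250 bases before the start that the RefSeq table (GRCh38.p14) gives, 5′ to 3′ on the gene's strand, with capitals for matches to the motifs searched. They are POLR1A at chr2:86105887-86106136 (minus strand), POLR2L at chr11:842530-842779 (minus), POLR2B at chr4:56978646-56978895 (plus) and TAF1D at chr11:93741496-93741745 (minus). The RefSeq starts differ from the ends of the gene spans in GENCODE 29. The windows of TAF1D, POLR2B and POLR1A lie inside those spans, that of TAF1D far from the GENCODE start, and the window of POLR2L overlaps its span in part.
POLR1A: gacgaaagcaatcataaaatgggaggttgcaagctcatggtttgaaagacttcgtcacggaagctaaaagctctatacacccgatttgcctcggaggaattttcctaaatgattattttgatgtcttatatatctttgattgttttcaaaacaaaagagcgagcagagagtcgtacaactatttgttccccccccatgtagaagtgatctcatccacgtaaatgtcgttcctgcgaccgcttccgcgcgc
POLR2L: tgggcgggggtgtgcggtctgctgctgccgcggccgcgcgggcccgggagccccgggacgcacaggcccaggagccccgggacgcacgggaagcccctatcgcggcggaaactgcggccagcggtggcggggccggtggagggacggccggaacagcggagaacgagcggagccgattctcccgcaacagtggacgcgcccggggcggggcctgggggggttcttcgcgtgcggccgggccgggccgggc
POLR2B: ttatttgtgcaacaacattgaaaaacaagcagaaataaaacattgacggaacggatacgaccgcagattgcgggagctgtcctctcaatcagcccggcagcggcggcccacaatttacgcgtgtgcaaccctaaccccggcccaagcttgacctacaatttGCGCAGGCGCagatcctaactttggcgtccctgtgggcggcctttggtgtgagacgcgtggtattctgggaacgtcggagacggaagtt
TAF1D: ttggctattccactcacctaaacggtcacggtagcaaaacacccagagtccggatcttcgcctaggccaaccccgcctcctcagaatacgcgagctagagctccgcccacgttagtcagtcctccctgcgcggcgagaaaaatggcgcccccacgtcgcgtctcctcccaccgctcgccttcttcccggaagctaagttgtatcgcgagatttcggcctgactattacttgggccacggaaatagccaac

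The GC content of these windows was 43.2% for POLR1A, 79.2% for POLR2L, 54.0% for POLR2B and 58.4% for TAF1D, with 14, 37, 20 and 23 CpG dinucleotides. Motifs were searched on both strands of these windows for the 19 members with a single promoter in the table. The E-box CACGTG, to which MYC binds, was in 1 of 19 (5.26%), POLR3A, beside 6.34% of 22114 genes with a single promoter. The ETS motif CCGGAAGT was in 3 of 19 (POLR1C, POLR2C and POLR3A, all of which rose), beside 3.74% of those genes. Of the 19 members searched, 11 rose, 4 fell and 4 did not pass. A link between a motif and the direction of change was not tested. The NRF1 motif (GCGCA, any base, then GCGC) was in 4 of 19 (POLR2B, POLR2E, POLR2J2 and POLR3K), beside 5.52%, and these fell, rose, did not pass and rose. The motif AAGATGGC, for YY1, was in none of the 19 windows, beside 1.37%. At so low a share, its absence from 19 windows says little, and bases after the start were not searched.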

How the data were processed

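RNA of 6 Kasumi-1 libraries was sequenced (3 shPHF19, 3 Control, grouped by sample title). The authors deposited whole-number counts per gene symbol, not normalized. The submitters' processing notes name hg38 as the genome build and the tools HTSeq 0.11.2 and HISAT2 2.1.0; the sources used here give no annotation or strand setting. A deposited table of the authors' own comparison was not used here.

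The test was that of edgeR 4.0.16 under R 4.3.3 (filterByExpr, TMM, robust quasi-likelihood F test with group as the only term), with Benjamini-Hochberg adjustment over 13014 genes and a threshold of 0.05. The SE is the log2 fold change divided by the root of F. A count of 0 allows up to 3 counts, or 0.177 to 0.223 CPM, counting error only. Within a group, the chi-square of each library pair was 4.63 to 11.7 times its degrees of freedom, so no library was a copy of another. On simulated counts for this comparison (12851 genes) the fit recovered 86 of 99 genes changed 2-fold and 62 of 99 changed 1.41-fold, with 9 false calls among 157. The simulation changed a far smaller share of genes than the 60.2% called here, so these rates may not hold for the data. Gene pairs were compared as log2 CPM differences per library (limma 3.58.1, voom) with exact permutation. Positions, exon lengths and GC content are from GENCODE 29, matched by symbol for 23673 of 26410 rows (POLR2J3 and POLR2J4 had more than 1 match and were left without). Promoters are from RefSeq and 29 member symbols matched.

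Per-library values are given for the 2 largest subunits of each enzyme, the paralog pairs and up to 4 called members per class with the largest change, and for some others. Outside the members, PHF19, markers, subunits that the naming pattern does not match and up to 4 genes per list with the smallest p are named. TBP, as part of SL1, and overlapping genes or copies are named too. Some further list genes were named after their values were seen, as stated where they appear. A member counted in the totals is not reported here by name. The members and lists were chosen with earlier results of these data known. Alternatives were other scalings, filters and tools (DESeq2 1.42.0, limma-voom), a replicate block, leaving out each library and, added after seeing the data, removal of length and GC trends.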

Additional observations from a re-analysis of the deposited data

How the results depend on the processing

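The number of members that rose was 18 to 25 in all alternatives run (23 as reported), and PHF19 stayed lower in each. All genes that rose numbered 2590 to 4053 in these fits (3820 as reported). Members that fell numbered 4 as reported, 10 with library totals only, 7 with upper-quartile factors, 7 without the length trend and 7 without length and GC trends (3 to 5 without 1 library). All genes that fell numbered 4015 as reported and 5624, 4778, 3728 and 3986 in these fits, in the same order. Library totals and upper-quartile factors shifted the median change over all genes to -0.24 and -0.14, beside -0.03, and relative to that shift the classes moved little; among all called genes 31.5% and 40.0% were then higher, in place of 48.8%. The medians were 0.59, 0.69, 0.81, 0.82 and 0.82 for Pol I only with library totals, upper-quartile factors, DESeq2 size factors, no filter and DESeq2, and 0.84 and 0.87 with the length and with both trends removed (0.77 to 0.86 without 1 library). For Pol II only they were 0.19, 0.30 and 0.29 with library totals, upper-quartile factors and both trends removed (0.32 to 0.49 without 1 library), and for Pol III only 0.067, 0.17 and 0.33 with library totals, upper-quartile factors and the length trend removed (0.21 to 0.37 without 1 library).

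Changes of sign were seen for 9 members that did not pass as reported. POLR1D had 0.0029 without a filter, 0.0044 with DESeq2, 0.11 and 0.16 with the length and with both trends removed, and -0.052 to 0.034 without 1 library. POLR2J3 had 0.0011, 0.0027, 0.036 and 0.027 without a filter, with DESeq2, limma-voom and the replicate block, and -0.26 to 0.28 without 1 library. POLR2J4 had -0.19 with library totals, -0.082 with upper-quartile factors and -0.035 to 0.087 without 1 library. With library totals POLR2K had -0.011, POLR3B -0.021, POLR3D -0.11 and TAF1A -0.033, and POLR3D had -0.011 with upper-quartile factors. TAF1B had -0.22 to 0.033 without 1 library, and BDP1 had 0.0066 and 0.20 with the length and with both trends removed. The causes were not tested. Same-numbered libraries did not deviate together (correlations of -0.164, -0.00655 and -0.0537), so the replicate number was taken as a name only; with the replicate block 3555 genes were higher and 3752 lower, in place of 3820 and 4015, and BRF1 was the only member to lose its call. The exact permutation tests of gene pairs cannot pass 0.05 with 3 against 3 libraries, and their differences kept their sign with a prior count of 2. Genes at a few CPM (POLR2J2, POLR2M, TAF1A) have the widest errors (SE 0.231 to 0.302).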

Other observations

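The genes for building polymerases and for the mitochondrial enzyme were also measured. Of 10 genes of polymerase assembly 4 rose, 2 fell and 4 did not pass (median log2 fold change 0.10), so 60.0% were called, against 60.2% of all genes tested. RUVBL2, an ATPase of the R2TP chaperone complex that assembles Pol II and other complexes, was at 286, 259.9 and 248 CPM in shPHF19 against 70.5, 89.6 and 80.0 CPM in Control libraries (3.30-fold, 1.72, edgeR adjusted p = 2.12e-21), and its partner RUVBL1 at 202, 178 and 182 CPM against 87.1, 90.1 and 79.8 CPM (1.13). PIH1D1 (0.63) and URI1 (0.42), which belong to the same chaperone system, rose too. RPAP3 (-0.45), which belongs to that chaperone system as well, fell, so its members did not all rise. RPAP2 (-0.38), which also acts in polymerase assembly, fell too. Both were named after their values were seen.

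Among 6 genes of mitochondrial transcription 1 rose, 1 fell and 4 did not pass (median 0.11), so 33.3% were called, against 60.2% of all genes tested. POLRMT, the single-subunit mitochondrial RNA polymerase, was at 97.6, 96.9 and 82.1 CPM in shPHF19 against 52.1, 58.9 and 58.4 CPM in Control libraries (0.71, edgeR adjusted p = 1.83e-08). TEFM, its elongation factor, was at 9.87, 9.33 and 12.7 CPM in shPHF19 against 16.9, 14.3 and 13.7 CPM in Control libraries (-0.49, edgeR adjusted p = 0.00762), so the enzyme and its elongation factor changed in opposite directions without overlap between groups.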
